A study of Mus musculus with 17 samples.

Results

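The entries mmu-miR-805, mmu-miR-689, mmu-miR-690, mmu-miR-709 and mmu-miR-720 are 5 of the 569 mature mouse microRNAs (miRs) on the arrays of this series, taken by their exact names. They were chosen by name with the measured ratios between injured and sham-operated kidneys already known, so the mean ratios of these 5 entries and the number of them past a threshold are given as a description, with no p-value. The daily ratios were known as well, so the adjusted p of a ratio's slope only places an entry among all miRs and is no independent support. Kidneys came from C57/BL6 mice aged 10 to 12 weeks that had 30 minutes of warm ischemia followed by reperfusion (ischemia reperfusion injury, IRI), a sham operation, or no surgery (naive). The sample labels give the mice as female, whereas the methods of the study describe male mice. Each surgery was sampled on 8 days (1, 3, 5 and 7, then 10, 14, 21 and lastly 30), with RNA pooled from 3 mice for each surgery and day, and 1 further pool came from naive kidneys. On each of the 8 day arrays the IRI pool carried the dye Cy3 and the sham pool Cy5, with no dye swap, so a difference between surgeries that is the same on every day and one between dyes cannot be told apart. The 8 days serve as the replicates of a surgery, and p-values measure the spread between these days. In whole kidney RNA, fewer cells that hold an RNA and less of it per cell cannot be told apart.

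miRs are small noncoding RNAs that are cut from hairpin precursors and guide repression of mRNAs, largely through the seed at the 5′ end of the mature strand. Short pieces of transfer RNA, ribosomal RNA and mitochondrial RNA have a similar size, and some entries of early miR catalogues have since been read as such pieces. MiR-720 is now generally regarded as a piece of a threonine transfer RNA, and miR-805 was annotated on the mitochondrial genome. MiR-709 has a purine-rich sequence and has been described in the cell nucleus of mouse tissues. The array also carried probes for 5S ribosomal RNA, a component of the large ribosomal subunit that stays in the fraction of RNA under 300 nt that was hybridised. These 5 5S probes are the control with which the 5 entries are compared below.

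The sequences that the probes were designed to detect are shown because the 5 entries carry no sequence in common. They are written 5′ to 3′ as the scanner files give them, with the seed (bases 2 to 8) in capitals.
miR-805: gAAUUGAUcaggacauaggg
miR-689: cGUCCCCGcucggcggggucc
miR-690: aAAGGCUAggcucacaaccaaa
miR-709: gGAGGCAGaggcaggagga
miR-720: aUCUCGCUggggccucca
Each seed occurred once among the 569 targets of the array, and any 2 of the 5 sequences were at least 9 single-base edits apart. The targets were 20, 21, 22, 19 and 18 nt long in the order shown. With 85.7% G or C, miR-689 had the highest GC content of the 569 targets. MiR-709 (68.4%) ranked 19 and miR-720 (66.7%) ranked 28, whereas miR-805 (45%) and miR-690 (45.5%) were close to the median target (45.5%). MiR-709 held no U and miR-689 no A. In the RefSeq tables of mouse build GRCm38.p6, 2 of the 5 had a gene. The target of miR-690 was identical to the RefSeq mature sequence at chr16:28599940-28599961 on the minus strand, inside the gene of fibroblast growth factor Fgf12. Mir709 lay at chr8:84086099-84086186, within the span of Rfx1, which encodes a transcription factor.

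All 5 entries lay above the array background in all 17 samples, as did 104 of the 569 miRs, and 162 miRs reached a normalized level of 200 in at least 1 sample and are called detected here (14 of them, no member, in the naive pool alone). Background is the median of 250 empty spots, plus 3 scaled median absolute deviations for a call. No member spot was saturated. The 6 spots of a member on an array had a median coefficient of variation between 5.67% for miR-805 and 10.9% for miR-689, and the highest single values, 25.3% for miR-805 and 26.5% for miR-689, came from the IRI pool of day 14 and the sham pool of day 7. Of 7 kidney tubule miRs, 6 were detected, with a summed level of 25610 to 31414 in IRI, 21105 to 39891 in sham and 20590 in naive kidney, and neither of 2 brain miRs was detected. The naive array was the dimmest, with a mean signal of 209 above background against 525 to 1412 in the other channels.

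miR-805 was lower in IRI than in sham kidney on all 8 days, with the widest gaps on days 14, 21 and 30. The IRI channels of days 14 and 30 had the least even spots of the series. Their median coefficient of variation over the miRs was 16.7% and 12.4%, against at most 7.46% in any other channel. For the miR-805 spots in these channels it was 25.3% and 19.6%. Its normalized level, which is an array intensity after scaling, ranged in sham kidney from 7002 on day 7 to 26790 on day 30, with a median of 14060. In IRI it ranged from 1783 on day 14 to 8396 on day 1, with a median of 4746. The groups overlapped in 1 IRI pool, since the IRI pools of the other 7 days lay below every sham pool. The log2 IRI/sham ratio was -0.69, -0.74, -0.72, -1.58, -1.40, -3.03, -2.29 and -3.75 from day 1 to day 30. Its mean was -1.77 (SD 1.15 over 8 days), a level 3.42-fold higher in sham, and the lowest of the 162 detected miRs. The ratio was thus below 0 on every day for miR-805, as it was for 14 of 162 detected miRs (8.64%). The difference was 1.61-fold on day 1 and 13.5-fold on day 30. These sizes depended on the scaling. With median scaling the log2 ratio was -0.54 on day 1 and -2.67 on day 30, and before scaling it was 0.30 and -1.84. Relative to the 5S probes described below it was 0.46 and -1.47.

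**Figure D1:**
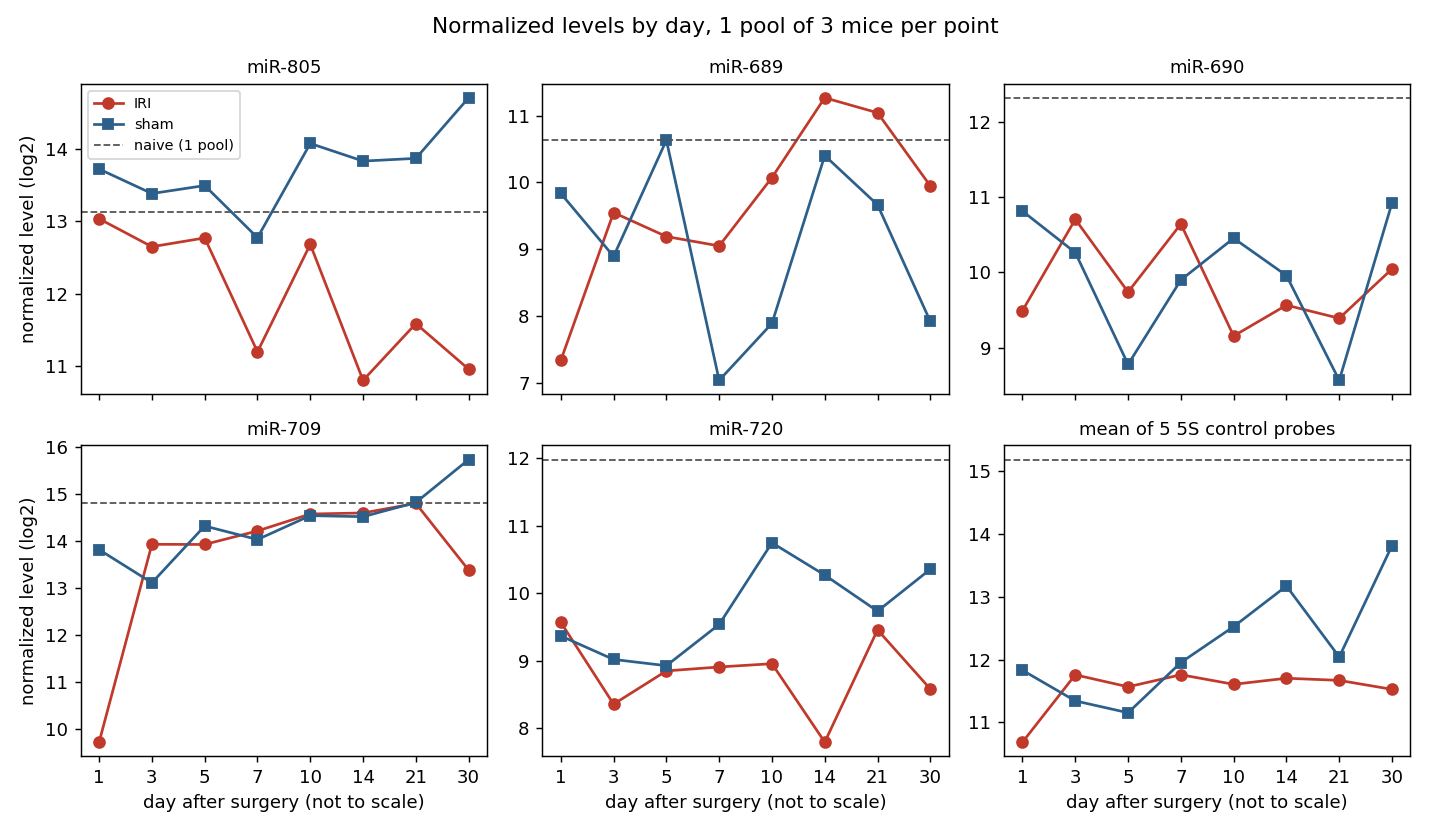
Normalized log2 levels (vertical axes, each with its own range) of the 5 entries and the mean of the 5 5S control probes by day after surgery, each point being 1 pool of 3 mice and the dashed line the single naive pool. The IRI points of miR-805 lie below the sham points on all 8 days, and the day 1 IRI point of miR-709 lies far below the rest.

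Over time the log2 ratio of miR-805 changed by -0.61 for each doubling of the day (SE 0.14). This slope had an adjusted p of 0.0648 over the 162 miRs by limma. The normalized level of miR-805 had a slope of -0.44 in IRI (SE 0.13, adjusted p = 0.0664 by limma) and 0.18 in sham (SE 0.11, adjusted p = 0.596 by limma). Both levels share the mean of the 2 channels, so these slopes are not separate measures of each surgery. In IRI the slope was -0.52 with the authors' processed values (adjusted p = 0.0297 by limma) and -0.46 without day 10 (adjusted p = 0.0325 by limma). In 10 of 13 alternatives it did not pass. Without day 1 the slope of the ratio was -0.89 with an adjusted p of 0.0283 by limma, and with the authors' processed values it was -0.60 with an adjusted p of 0.0493. It was smaller with median scaling (-0.43, adjusted p = 0.183 by limma), without day 30 (-0.48, adjusted p = 0.201) and relative to the 5S probes described below (-0.37). The mean ratio was negative under every scaling run, but its size changed: before any scaling of the channels the mean log2 ratio was -0.75 (SD 0.98), below 0 on 6 of 8 days, on arrays where the median detected miR stood at 2.04. Relative to that median, the unscaled ratio of miR-805 was -2.79.

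In naive kidney miR-805 had a normalized level of 8980, above all 8 IRI pools and below 7 of the 8 sham pools. Before scaling its naive signal was 805, below all 16 pools of operated mice, so that the place of naive kidney depends on the scaling. Naive is 1 pool on 1 array of low signal, and its distance from either group has no replicate error. Among the other 161 detected miRs, the ratio of miR-805 over the 8 arrays was most like that of miR-501-3p (Pearson r = 0.94), miR-744 (r = 0.90) and miR-145 (r = 0.87). MiR-501-3p and miR-744 had small mean log2 ratios of -0.24 and -0.27, and the slope of miR-145 was -0.43. MiR-145 and its cluster partner miR-143 are smooth muscle miRs, and the ratio of miR-143 ran the other way (r = -0.61 with miR-805, slope 0.12). None of the 3 most alike shares its seed with miR-805. These likenesses describe 8 arrays that share their dyes.

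Some markers of other cells went with miR-805, and others of the same lists did not. The ratio of miR-451 and of miR-486, miRs of red blood cells, had a falling slope (-0.79 and -0.59, adjusted p = 0.0124 and 0.0252 by limma), and each correlated with the ratio of miR-805 at r = 0.84 over 8 arrays. The third miR of that list, miR-144, was not detected, and the summed level of the 3 was 328 to 1209 in IRI and 395 to 1491 in sham kidney. The ratio of the lymphocyte miR-150 ran opposite to miR-805 (r = -0.92), and of 5 leukocyte miRs 3 were detected, with a summed level of all 5 of 1447 to 3266 in IRI and 820 to 1177 in sham. The other 2 detected leukocyte miRs, miR-223 and miR-155, correlated with miR-805 at r = -0.44 and 0.19. The tubule miRs miR-192 and miR-194 had mean log2 ratios of -0.88 and -0.76 and correlated with miR-805 at r = 0.74 and 0.76. Of the other 4 detected tubule miRs, miR-10a (mean log2 ratio 0.60) and miR-10b (0.33) ran opposite to miR-805, at r = -0.85 and -0.87, and miR-30a and miR-30c had r = 0.13 and -0.13. The liver miR-122 reached 3092 in 1 sham pool and stayed at or below 104 in IRI. The part of blood, leukocyte or tubule content in the miR-805 ratio was not tested.

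miR-720 was lower in IRI than in sham kidney on most days after scaling. Its level ranged from 221 on day 14 to 759 on day 1 in IRI (median 470) and from 485 on day 5 to 1720 on day 10 in sham kidney (median 797). On 5 of 8 days the IRI pool lay below every sham pool, and the groups overlapped in the others. The log2 ratio was below 0 on 7 of 8 days, from 0.20 on day 1 to -2.48 on day 14, with a mean of -0.94 (SD 0.96), the fifth lowest of the 162. Before scaling of the channels the mean log2 ratio of miR-720 was 0.49, that is, above 0, and -1.55 relative to the median detected miR. Counted by the rule of an adjusted p under 0.05 in limma, which rests on the contrast that was known when the names were chosen, 2 of the 5 entries (miR-805 and miR-720) were lower and 0 higher in IRI. In the same comparison 36.4% of the 162 detected miRs passed, 17.9% lower and 18.5% higher, and no more is read from the count. With any of days 3, 7, 10, 14, 21 or 30 left out, only miR-805 was past that threshold.

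The ratio of miR-720 had a slope of -0.38 per doubling of the day (SE 0.17, adjusted p = 0.255 by limma). Its level showed a slope of -0.11 in IRI and 0.26 in sham kidney, with adjusted p of 0.620 and 0.438 by limma. The ratios most like it over 8 arrays were those of miR-712* (r = 0.88), miR-192 (r = 0.84) and miR-23b (r = 0.81). MiR-712* itself had a mean log2 ratio of 0.07 and did not exceed 117 in IRI.

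**Figure D2:**
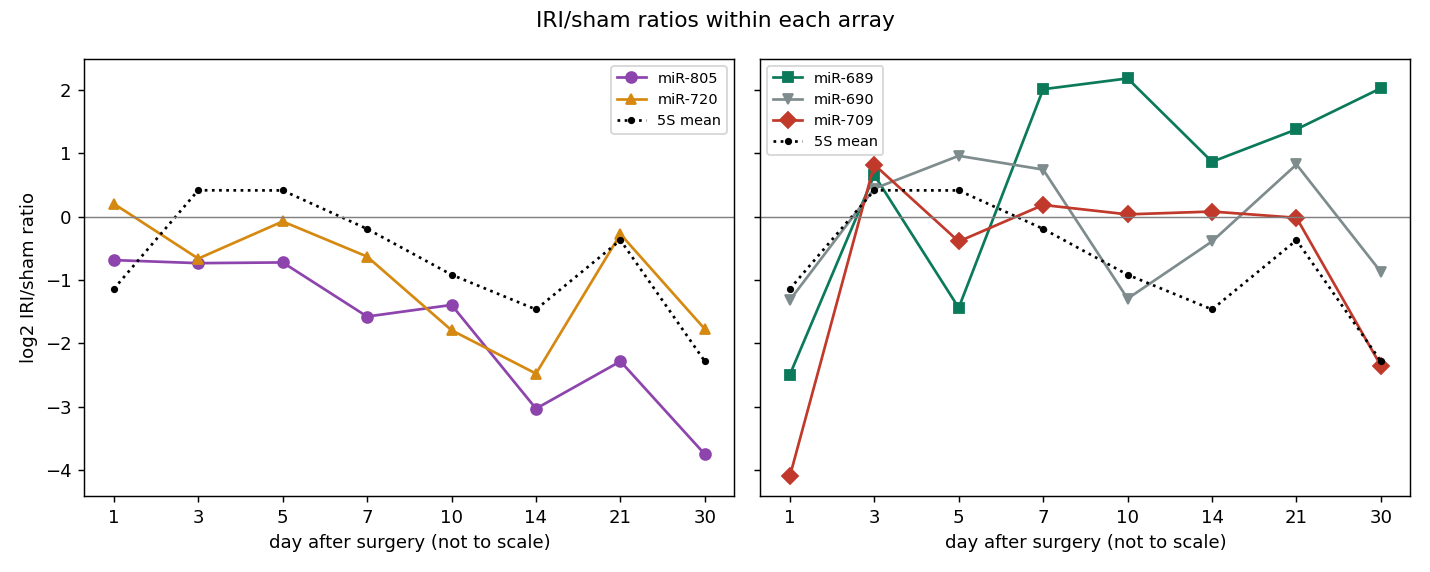
Log2 IRI/sham ratio by day for miR-805 and miR-720 (left) and for miR-689, miR-690 and miR-709 (right), with the mean of the 5 5S control probes as a dotted line in both panels and 0 as a grey line. miR-805 stays below 0 on all 8 days and reaches -3.75 on day 30, while miR-709 departs from 0 mainly on days 1 and 30.

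miR-689 rose with time in the IRI pools. Its level there was 162 on day 1, the lowest of the 8 days, and 2462 on day 14, the highest, with a median of 868. In sham kidney it ranged from 131 on day 7 to 1585 on day 5, with a median of 643, and IRI and sham values overlapped widely. The slope in IRI was 0.65 per doubling of the day (SE 0.15, adjusted p = 0.0362 by limma), or 1.57-fold for each doubling. It was the one member past the threshold in IRI, where 4.32% of the 162 detected miRs rose and 4.32% fell by this rule. The call depended on single days and on the scaling. The slope was 0.83 with an adjusted p of 0.00758 by limma without day 30, whereas without day 1 the slope was 0.46 with an adjusted p of 0.275 by limma. Without day 5, 7, 14 or 21 the slope was 0.59 to 0.64 with an adjusted p of 0.0540 to 0.0929, and with median scaling of the channels it was 0.67 with an adjusted p of 0.247. In sham kidney the slope was -0.19 (SE 0.28, adjusted p = 0.952 by limma).

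The log2 IRI/sham ratio of miR-689 was -2.50, 0.66, -1.44, 2.01, 2.18, 0.87, 1.38 and 2.03 from day 1 to day 30. It was below 0 on days 1 and 5 and above 0 on the other 6 days, with a mean of 0.65 (SD 1.73), and only 1 of the 162 detected miRs varied more from day to day. The slope of the ratio was 0.84 (SE 0.25), the steepest rise of the 162, with an adjusted p of 0.121 by limma. On days 7, 10 and 30 the sham pools had only 23.2, 24.5 and 56.2 units of signal above the empty spots, so the ratios of those days rest on dim sham spots. The naive level of 1586 was barely above the highest sham pool (1585) and above 6 of the 8 IRI pools, whereas before scaling the naive signal of 210 was above 3 sham pools and no IRI pool. The ratio of miR-689 was most like that of miR-1224 (r = 0.91), miR-466g (r = 0.84) and miR-762 (r = 0.83), with r of 0.83, 0.60 and 0.85 without day 1.

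miR-709 stood apart on day 1 after ischemia. Its level in the IRI pool of that day was 843, whereas the IRI pools of the other 7 days had 10706 to 28690 and the sham pools 8881 to 54845. On day 1 it was 17.2-fold lower in IRI than in sham, a log2 ratio of -4.10. Before scaling, the 6 spots of the day 1 IRI pool had 2066 to 2195 units of signal above the empty spots and the 6 spots of the sham pool on the same array had 17518 to 18916, so that the spots did not overlap. From day 3 to day 21 the log2 ratio lay between -0.39 and 0.82, and on day 30 it was -2.36. With median scaling it was between -0.98 and 0.23 from day 3 to day 21 and below 0 on 7 of the 8 days, with a mean of -1.02. The mean ratio was -0.72 (SD 1.65), the median 0.01, and the mean without day 1 -0.24. The day 30 value depended on the scaling, being -1.23 with the authors' processed values and -0.39 before scaling.

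**Figure D3:**
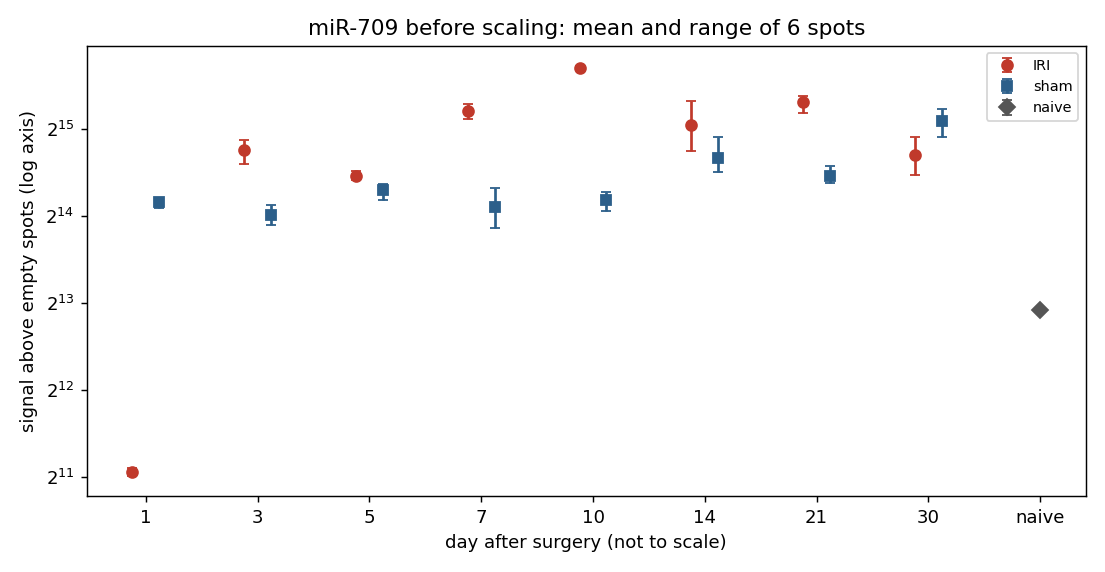
Signal of miR-709 above the empty spots before scaling (log axis) in each pool, with points as the mean and bars as the range of its 6 spots. The day 1 IRI spots lie at 2066 to 2195, below the spots of all other pools, including the naive pool.

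The IRI pool of day 1 was at an extreme for many miRs, in either direction. Of the 162 detected miRs, 33 (20.4%) had their lowest IRI level on that day and 33 their highest, miR-805 and miR-720 among the latter, against 6.17% to 25.9% lowest on any other day. On day 1, 3 (miR-709, miR-689 and miR-214) lay more than 4-fold below the mean of the other days, with differences of -4.49, -2.68 and -2.28 on the log2 scale. With day 1 included, the level of miR-709 in IRI had the steepest slope of the 162, at 0.75 per doubling of the day (SE 0.24, adjusted p = 0.0813 by limma), and without day 1 it was 0.03. Without day 30, with day 1 kept, it was 1.06 with an adjusted p of 0.0202 by limma, the 1 of 13 alternatives that passed. In sham kidney the slope was 0.39 (SE 0.10, adjusted p = 0.130 by limma), 0.63 with an adjusted p of 0.0387 without day 1, and 0.16 with an adjusted p of 0.468 with median scaling. The slope of the ratio was 0.36 with an adjusted p of 0.604 by limma, and it turned to -0.60 without day 1. The ratios most like that of miR-709 were those of miR-672 (r = 0.93), miR-671-5p (r = 0.92) and miR-574-5p (r = 0.90), whose log2 ratios on day 1 were -0.66, -0.87 and -2.91. Without day 1 these r values were 0.84, 0.76 and 0.66. The naive level of 28884 was above all 8 IRI pools and 6 of the 8 sham pools, whereas before scaling the naive signal of 7736 was below every pool except the IRI pool of day 1.

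miR-690 showed no sustained difference between the groups. Its level ranged from 571 to 1669 in IRI (median 807) and from 380 to 1940 in sham kidney (median 1113), and the groups overlapped. The log2 ratio was above 0 on 4 days and below 0 on 4, from -1.32 on day 1 to 0.96 on day 5, with a mean of -0.11 (SD 0.97). Before scaling of the channels that mean was 1.31, and -0.73 relative to the median detected miR. The slope of the ratio was 0.07 (SE 0.22, adjusted p = 0.907 by limma). The ratios most like it were those of miR-320 (r = 0.87), let-7b* (r = 0.84) and miR-378 (r = 0.79).

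Naive levels of miR-690 (5101) and miR-720 (4051) were above all 16 pools of operated mice, 6.32-fold and 8.63-fold above the IRI medians. The mean of the 5S probes behaved likewise, at 37200 in naive kidney against 1648 to 3465 in IRI and 2279 to 14397 in sham, but all 4 spots of 1 of the 5 probes, 5S-b5, were saturated on the naive array, so that this mean is not exact. Before scaling naive kidney lay below all 16 pools for miR-720 and below all but 2 sham pools (days 5 and 21) for miR-690, whereas 5S-b2, 5S-b4 and 5S-b5 still had a higher signal in naive kidney than in any other pool (17046 against at most 15795 for 5S-b2). The signal of miR-690 was 366 in naive kidney against medians of 1659 in IRI and 760 in sham, and that of miR-720 was 329 against 704 and 542. With 1 naive pool, labelled alone on its array, the difference from the operated mice has no replicate check.

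Across the 5 entries none had a slope of the ratio past an adjusted p of 0.05 in limma, where 2.47% of the 162 detected miRs did, and none did with an intensity trend and robust variances. Relative to the 5S probes, a setting added after seeing the data, the slope of miR-689 was 1.09 and past the threshold, but that fit used 1 pooled variance for all miRs in place of the spread of miR-689, which had the largest SD of the 5 in this setting (2.16). At an unadjusted p under 0.05, 2 of the 5 (miR-805 and miR-689) passed, against 21% of the 162. In sham kidney none of the 5 passed at an adjusted p under 0.05 (1.23% of the 162) and 1 (miR-709) passed at an unadjusted p under 0.05 (10.5%). The SD of the log2 ratio between days was 0.96 to 1.73 for the 5, with a median of 1.15 against 0.41 over the 162. The 5 did not move as one group. Over the 8 arrays the ratios of miR-805 and miR-720 correlated at r = 0.70 and those of miR-805 and miR-689 at r = -0.58. Among the detected miRs, the 13 with 66.7% or more G or C had a median SD of 0.27 and the other 149 one of 0.42. This cut is the lowest GC content of miR-689, miR-709 and miR-720, which are among the 13. GC content went with the slope in IRI, with r = 0.37 and rho = 0.37 across the 162 miRs, which share arrays and are not independent. The median slope in IRI was 0.12 in the 13, of which 7 rose, and -0.01 in the 149, of which 63 rose. The 13 hold miR-709 and miR-689, whose slopes in IRI ranked 1 and 3 of the 162, so their median is no separate support for these entries. The part of GC content in the slopes of miR-689 and miR-709 was not tested.

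**Figure D4:**
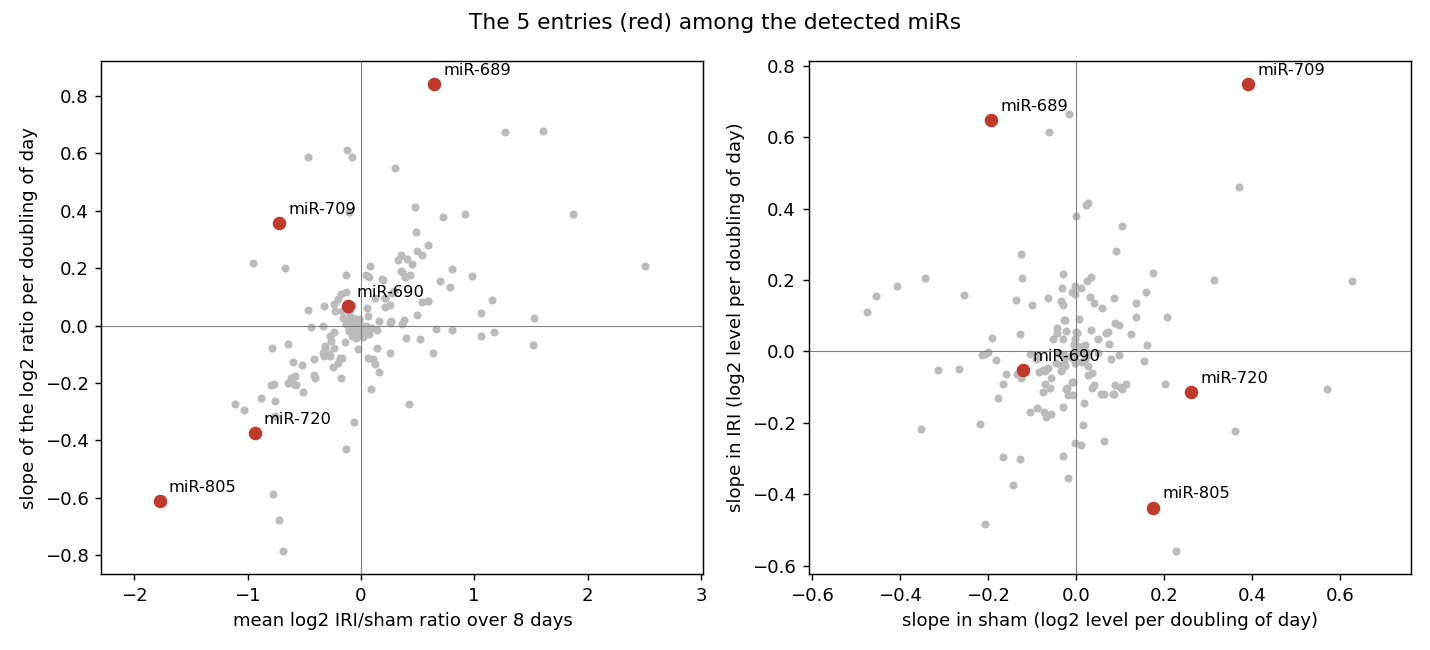
Left, mean log2 IRI/sham ratio over 8 days (horizontal) and its slope per doubling of the day (vertical); right, slope of the log2 level in sham (horizontal) and in IRI (vertical). Each grey point is 1 of the 162 detected miRs and the 5 entries are red. miR-805 has the lowest mean ratio, miR-689 the steepest rise of the ratio and miR-709 the steepest rise in IRI.

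The 5S control probes give an RNA of the same size fraction that is no miR, measured on the same arrays. Its IRI/sham ratio varied between days as well. The mean log2 IRI/sham ratio of the 5 probes was -0.69 (SD 0.94 over 8 days), below 0 on 6 of 8 days, from 0.42 on day 3 to -2.29 on day 30, and the 5 probes correlated with each other at r = 0.69 to 0.97 over the arrays. Before scaling the mean was 0.45. Relative to the 5S mean of the same array, the log2 ratio of miR-805 was -1.08 (SD 0.75) and lay below that of 5S on 7 of 8 days, all except day 1. On the same scale the mean was -0.24 (SD 0.84) for miR-720, -0.03 (SD 1.37) for miR-709, 0.58 (SD 0.68) for miR-690 and 1.34 (SD 2.16) for miR-689. The slope of the 5S ratio was -0.25 per doubling of the day (exact permutation p = 0.308, two-sided), between those of miR-720 and miR-690.

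Of 15 relations between the 5 entries and the 5S mean (ratio, IRI level and sham level, each over 8 days), 1 passed after adjustment. In sham kidney the level of miR-720 rose and fell with 5S, with Spearman's rho = 0.93 (exact permutation p = 0.00223, adjusted p = 0.0335) and Pearson's r = 0.84 (exact permutation p = 0.00908, adjusted p = 0.104). Without days 14 and 30, the days farthest from the median of 5S, r was 0.95. The adjusted p of rho was 0.0684 with the authors' processed values, 0.240 with median scaling, and 0.179 to 0.185 with day 1, 3, 5, 7 or 21 left out, while rho itself was 0.89 to 1 with any one day left out. The level of miR-709 in IRI had r = 0.96 with 5S (exact permutation p = 0.0219, adjusted p = 0.104) but rho = 0.62, and r was 0.47 without days 1 and 7, so that this r rests on those days. With median scaling rho was 0.95 with an adjusted p of 0.0171, and it was 0.17 with plain background subtraction. For the ratio of miR-805 r was 0.76 (exact permutation p = 0.0277, adjusted p = 0.104) and rho 0.55, and r was 0.45 without days 3 and 30 but 0.92 (rho = 0.86) without day 1.

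Entries with neighbouring catalogue numbers were mostly dim. Of 40 other miRs on the array numbered from miR-680 to miR-721, 6 were detected and 1 lay above background in all 17 samples. Of the 6, 3 (miR-699, miR-712* and miR-715) reached a level of 200 in the naive pool alone, so their ratios rest on dim spots. The other 3 (miR-705, miR-680 and miR-682) had mean log2 ratios of -0.20, -0.13 and -0.04, and none of the 3 had an adjusted p under 0.05 in limma.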

How the data were processed

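Kidney RNA from 17 pools was measured on 9 miR arrays (8 with both dyes, 1 with the naive pool alone). The deposited scanner files hold raw spot intensities, with 6 spots per miR, 4 per 5S probe and 250 empty spots. The authors' processed table holds scaled intensities made in a way that the sources used here do not give. Background was corrected with normexp (offset 50), the spots of a probe were averaged and the log2 was taken, ratios were scaled within each array by loess (span 0.3) on the miRs, and levels between arrays by quantiles, with limma 3.58.1 in R 4.3.3. On the day 5 array the header does not name the pools, and its channels were assigned from the dyes in the labels and by comparison with the processed table. Mean ratios and slopes over log2(day) were fitted with limma over all 162 detected miRs with Benjamini-Hochberg adjustment. The slope of the 5S ratio and the relations with 5S were tested by exact permutation of the 8 days. Named miRs were the 5 entries, the 5S probes, the 3 detected miRs whose ratio correlated best with each entry, at most 3 neighbours by catalogue number, and miRs of the cell type marker lists. MiR-214, miR-682 and miR-715 were named after their values were seen. Members, lists and tests were chosen with earlier results of these data known. The ratio relative to 5S and the unscaled ratio were added after seeing the data. In simulated ratios with the spread of the 162 miRs, 89.7% of mean changes of 1 and 78.4% of slopes of 0.5 on the log2 scale were recovered. These shares are over changes placed at random among the 162. The 5 entries varied more between days (median SD 1.15 against 0.41), so the shares do not give the recovery for them. The number of arrays limits the precision.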

Additional observations from a re-analysis of the deposited data

Results flagged for a closer look

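The IRI level of miR-709 on day 1 stood far from the other 7 days. Its log2 level was 9.72 and the next lowest 13.39, a gap that takes a share of 0.721 of the range of the 8 days, above Dixon's critical value for 8 values. The IRI level of the 5S mean was also farthest from the others on day 1, at 10.69 against 11.53 for the next lowest, with a gap share of 0.783. These were 2 of 18 series of 8 days examined (IRI level, sham level and ratio of the 5 entries and of 5S), and such a gap arises by chance in about 1 series in 20. Among the single 5S probes the day 1 IRI level was the lowest of the 8 days for 5S-b1 (687), 5S-b2 (1833) and 5S-b4 (2328), and not for 5S-b3 and 5S-b5. What set day 1 apart was not tested.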

How the results depend on the processing

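The mean log2 ratio of miR-805 stayed negative in all 17 alternatives (-1.93 to -0.75), and that of miR-689 stayed positive. Without scaling of the channels the mean was 2.54 for miR-689, 1.31 for miR-690, 0.16 for miR-709 and 0.49 for miR-720, with 2 members (miR-689 and miR-690) higher and 0 lower past the threshold, where 146 of the 162 detected miRs were higher and 0 lower. Relative to 5S, 1 member was higher (miR-689, whose slope was then 1.09 and past the threshold) and 1 lower (miR-805, the 1 of the 162 that was lower), where 44 were higher. That fit used 1 pooled variance for all miRs, and the SD of miR-689 over the days was 2.16 around a mean of 1.34, so its calls do not rest on its own spread. With median scaling, day 10 left out, a floor of 200 or no filter on dim probes, 1 member (miR-805) was lower.

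The counts over all detected miRs were less stable. With median scaling 9 were lower and 0 had a slope past the threshold, with day 10 left out 18 were lower, with the floor 16 were higher and 14 lower, with the filter on the mean level 19 were lower, and with no filter 51 were higher, 49 lower and 0 had a slope. The authors' processed values gave 8 slopes and day in place of log2(day) 14. With one array left out the counts were 18 to 32 higher, 8 to 29 lower and 0 to 19 slopes, with 1 to 2 members lower.

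The slope of the miR-805 ratio was -0.60 with the authors' processed values and -0.11 per day, both past the threshold, and -0.89 to -0.48 with one array left out. Per day, the ratio slope was -0.0102 for miR-690 and -0.0095 for miR-709. With one array left out it was -0.34 to 0.22 for miR-690 and -0.60 to 0.77 for miR-709, and the level slope was -0.256 to 0.0221 in IRI and -0.331 to 0.0861 in sham for miR-690 and -0.205 to 0.0641 in IRI for miR-720. With median scaling the sham slope of miR-805 was -0.0844, and rho with 5S was 0.33 for miR-689 in sham and 0.48 for miR-720 in IRI. The Spearman correlation of miR-689 with 5S was -0.18 to 0.57 in IRI and -0.61 to 0 in sham with one array left out. With day 10 left out 1 Pearson relation with 5S (miR-720 in sham) passed, and 0 to 1 with one array left out (the miR-805 ratio without day 1).

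The ratio pairs the IRI and sham pools of an array. With no replicate block, the 16 levels gave 2 slopes past the threshold and the same 2 members lower (miR-805 and miR-720), where 22 of the 162 were lower and 29 higher. The cause of these shifts was not tested. Dim sham spots limit miR-689.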
